A study of Gallus gallus with 4 samples.

Results

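Transporter genes for glucose, amino acids and monocarboxylates were described in growing dorsal feathers, in the complex around the dermal papilla. The genes were taken by name: every row of the table whose symbol belongs to the solute carrier (SLC) families 1, 2, 3, 6, 7, 16, 38 or 43. The rule found 65 of 15386 genes, with 10 in SLC2, 12 in SLC16, 6 in SLC1, 10 in SLC38, 10 in SLC7, 1 in SLC3, 1 in SLC43 and 15 in SLC6. The tissue came from untreated White Leghorn chickens and was dissected from the anterior or the posterior side of the papilla, with 2 RNA-seq libraries from each side. The labels give no age or sex, and they do not say whether the libraries came from separate birds or pools. The p-values thus cover the spread among the 4 samples alone, and that spread may be technical. The libraries are called 1 and 2 within each side, as the table's column names number them.

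Sugars, amino acids and lactate do not cross the cell membrane unaided, and SLC proteins carry them. SLC2 proteins (GLUTs) let hexoses through along their gradient. SLC16 proteins (MCTs) include the proton-linked carriers of lactate and pyruvate. Amino acids enter by sodium-driven carriers (SLC1, SLC6, SLC38), by uniporters (SLC43) and by the SLC7 proteins, some of which work only when joined to an SLC3 heavy chain. The papilla is the mesenchymal signalling centre at the base of the feather follicle, next to epithelium that grows and keratinises throughout feather growth.

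Values are RPKM, reads scaled to gene length and library size, so levels may be compared between genes. The number of reads behind a value is unknown. Markers of the papilla mesenchyme were present, with 12 of 13 at a testable level and SOX2 at most 0.163 RPKM. Summed keratinocyte markers ran from 1446 to 3586 RPKM, so the samples also held epithelium. Posterior library 1 stood apart: its summed smooth muscle markers reached 4386 RPKM, against 295.4 to 387 RPKM in the other libraries, and its median over all genes was 3.75 RPKM against 4.62 to 4.88 RPKM. The main results that rest on it are given with and without it.

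Mean levels differed widely among these genes. A mean of at least 10 RPKM over the 4 libraries was reached by 14 of the 65 genes, the highest being SLC38A2 at 62.7 RPKM. The lowest of the 14, SLC1A4 at 10.3 RPKM, stood at percentile 69.2 of all genes of the table by mean level. In bulk tissue, fewer cells of a type and less RNA per cell cannot be told apart, and this holds for every difference below. Testing was limited to genes that reached 1 RPKM in 2 or more libraries, which left 32 of the 65, beside 10939 of all 15386 genes. Of the 33 others, 30 were under 1 RPKM in every library and 3 reached it in a single library.

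**Figure D1:**
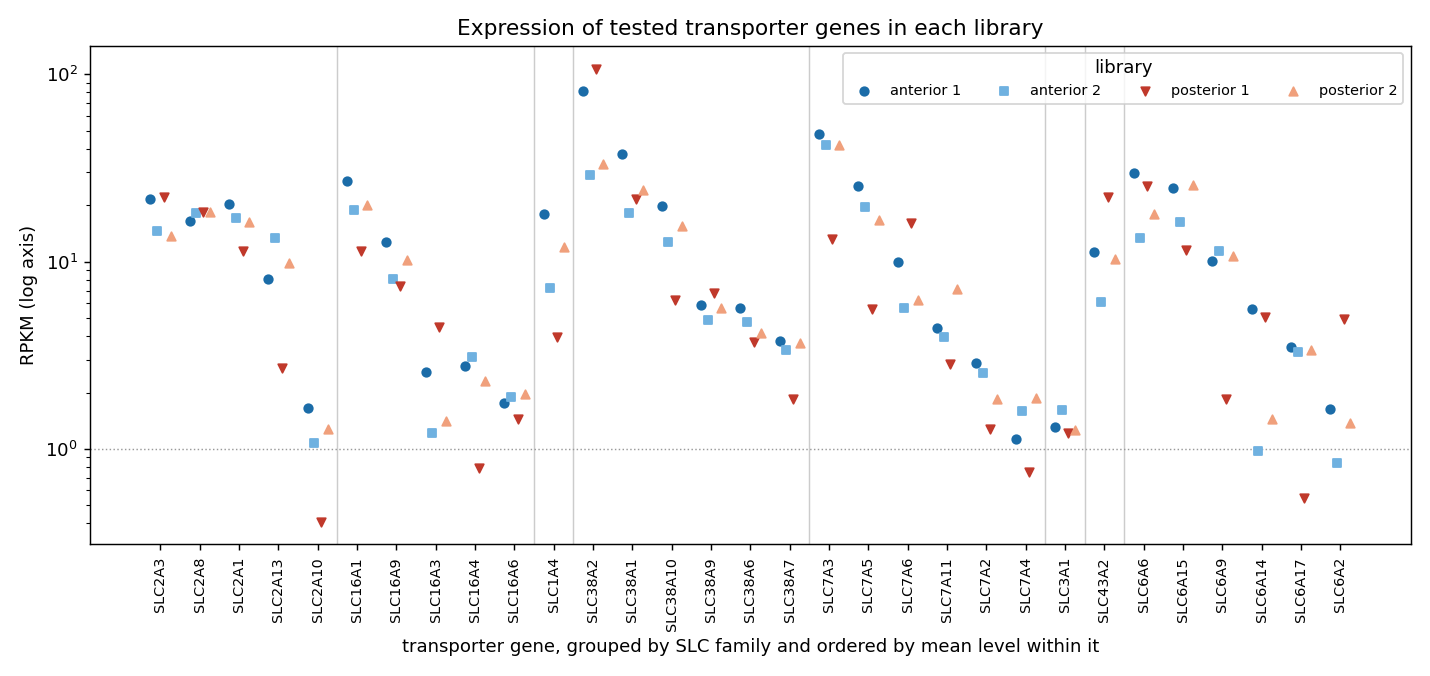
RPKM on a log axis for 31 of the 32 tested transporter genes, grouped by SLC family. Each point is 1 library and the dotted line marks 1 RPKM. SLC38A2 spans 29.0 to 107 RPKM, SLC2A8 16.4 to 18.4 RPKM, and posterior library 1 often stands below or above the other 3.

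Among the glucose carriers, 3 genes stood at similar levels. SLC2A3 (GLUT3, a high-affinity neuronal-type carrier in mammals) measured 21.5 and 14.5 RPKM in the anterior libraries, against 22.1 and 13.7 RPKM in the posterior libraries. SLC2A8 (GLUT8, a mostly intracellular hexose carrier in mammals) measured 16.4 and 18.1 RPKM anteriorly against 18.3 and 18.4 RPKM posteriorly. SLC2A1 (GLUT1, the basal glucose carrier of many cells) measured 20.3 and 17.1 RPKM anteriorly against 11.4 and 16.2 RPKM posteriorly. SLC2A8 varied least of these, and SLC2A1 was lowest in posterior library 1. In the RefSeq gene table, SLC2A3 is now an older name of SLC2A14, so the row may carry either name.

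The proton-coupled inositol carrier SLC2A13 (HMIT) measured 8.08 and 13.3 RPKM anteriorly against 2.72 and 9.78 RPKM posteriorly. SLC2A10 (GLUT10, whose loss causes arterial tortuosity in humans) was near the detection filter, at 1.66 and 1.08 RPKM anteriorly against 0.410 and 1.28 RPKM posteriorly. Both were lowest in posterior library 1. The other 5 SLC2 genes stayed under the filter. Of these the fructose carrier SLC2A5 was the highest, at 0.931 and 0.832 RPKM anteriorly against 1.14 and 0.914 RPKM posteriorly. SLC2A2, the low-affinity carrier of liver and pancreatic islets, did not exceed 0.0701 RPKM.

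Of the SLC16 genes, SLC16A1 (MCT1, a lactate and pyruvate carrier) measured 26.8 and 18.8 RPKM anteriorly against 11.4 and 20.1 RPKM posteriorly. SLC16A9, a carnitine carrier in humans, measured 12.7 and 8.06 RPKM against 7.43 and 10.1 RPKM in the same order. The sides overlapped for both genes.

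The row named SLC16A3 was low, at 2.58 and 1.22 RPKM anteriorly against 4.49 and 1.40 RPKM posteriorly. SLC16A3 is MCT4, the lactate exporter of glycolytic cells, but RefSeq also lists this symbol as an older name of SLC16A8 (MCT3), and the table does not say which of the pair the row holds. The row was higher in library 1 than in library 2 on both sides. SLC16A4, an MCT of little known substrate, measured 2.76 and 3.09 RPKM anteriorly against 0.787 and 2.31 RPKM posteriorly, with no overlap. SLC16A6, a ketone body carrier, ranged from 1.44 to 1.96 RPKM. SLC16A7 (MCT2, a high-affinity monocarboxylate carrier) was under the filter, at 0.442 and 0.3998 RPKM anteriorly against 0.878 and 0.422 RPKM posteriorly.

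Family SLC38 holds sodium-coupled neutral amino acid carriers. It made up the largest share of the summed transporter RPKM in anterior library 1 (30.1%) and in both posterior libraries (40.8% and 22.2%). SLC16 led in anterior library 2 at 23.3%, followed by SLC7 at 20.8% and SLC38 at 20.3%. In posterior library 2, SLC16 and SLC7 were close to SLC38, at 20.5% and 19.5%. A single gene, SLC38A2, supplied 38.2% to 71.4% of the SLC38 sum. SLC38A2 (SNAT2, a carrier known to be induced by amino acid shortage and by hyperosmotic stress) measured 81.6 and 29.0 RPKM anteriorly against 107 and 33.1 RPKM posteriorly. The library 1 value was 2.81 times the library 2 value on the anterior side and 3.23 times on the posterior side. SLC38A1 (SNAT1, with similar substrates) measured 37.4 and 18.2 RPKM anteriorly against 21.6 and 24.2 RPKM posteriorly, and the posterior values lay between the anterior ones.

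Of the other SLC38 genes, SLC38A10 measured 19.9 and 12.8 RPKM anteriorly against 6.21 and 15.5 RPKM posteriorly. SLC38A9, a lysosomal arginine sensor of the mTORC1 pathway, measured 5.87 and 4.85 RPKM against 6.75 and 5.62 RPKM in the same order, a narrow range. SLC38A6 measured 5.62 and 4.74 RPKM anteriorly against 3.74 and 4.17 RPKM posteriorly, with no overlap. The lysosomal glutamine carrier SLC38A7 measured 3.79 and 3.38 RPKM against 1.85 and 3.69 RPKM, again lowest in posterior library 1. SLC38A4 (SNAT4, a system A carrier) was seen almost only in posterior library 1: it measured 0.108 and 0.158 RPKM anteriorly against 2.70 and 0.0791 RPKM posteriorly. It was not tested, since 1 library alone reached the filter.

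Of family SLC1, only the neutral amino acid exchanger SLC1A4 (ASCT1) was tested. It measured 17.9 and 7.25 RPKM anteriorly against 3.98 and 12.0 RPKM posteriorly, so the sides overlapped. The glutamate carriers of the family were low, with SLC1A3 (GLAST) the highest at 0.918 and 0.785 RPKM anteriorly against 0.394 and 0.752 RPKM posteriorly. SLC43A2 (LAT4, a uniporter of large neutral amino acids) measured 11.3 and 6.06 RPKM anteriorly against 22.2 and 10.3 RPKM posteriorly, with its highest value in posterior library 1.

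**Figure D2:**
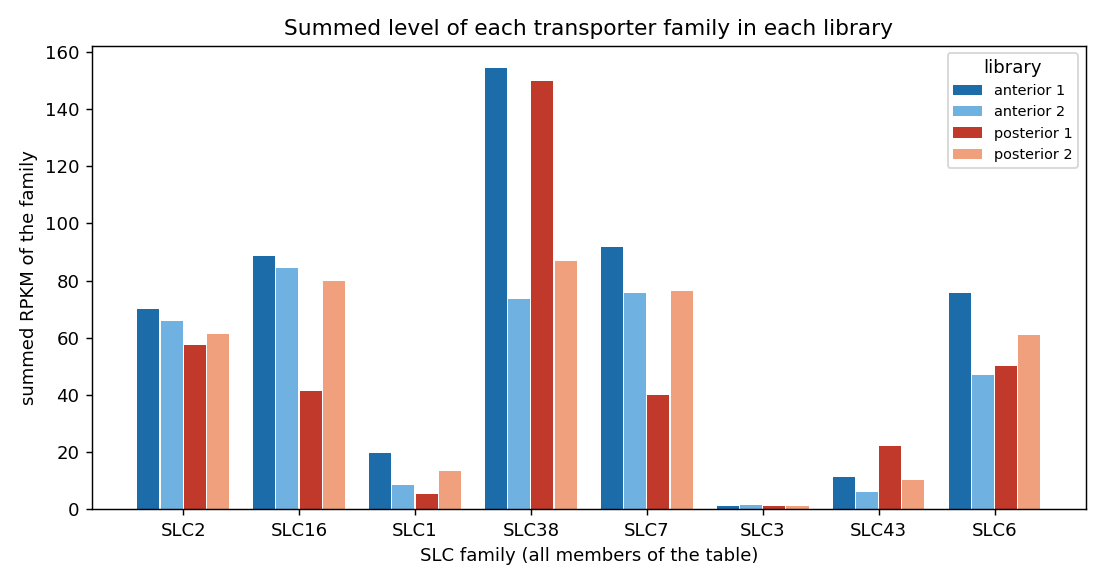
Summed RPKM in each library of the rows of each SLC family found by name, as bars from 0. The row CAT-1, an older name of SLC7A1, is not in the SLC7 sum. SLC38 stands at 154 and 73.4 RPKM in the anterior libraries and at 150.0 and 86.7 RPKM in the posterior libraries, while SLC16 and SLC7 are lowest in posterior library 1, at 41.4 and 39.9 RPKM.

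Cationic amino acid carriers were led by SLC7A3 (CAT3, a carrier of arginine and lysine), at 48.0 and 41.6 RPKM anteriorly against 13.1 and 41.9 RPKM posteriorly. It supplied 33.0% of the summed SLC7 RPKM in posterior library 1 and 52.3% to 55.1% in the others. SLC7A2 (CAT2, another cationic carrier) was much lower, at 2.88 and 2.53 RPKM anteriorly against 1.28 and 1.85 RPKM posteriorly, with no overlap. Members that pair with a heavy chain included SLC7A5 (LAT1, a carrier of large neutral amino acids), at 25.2 and 19.6 RPKM anteriorly against 5.61 and 16.7 RPKM posteriorly, also with no overlap. SLC7A6 (y+LAT2, an exchanger of cationic and neutral amino acids) went the other way in posterior library 1, at 9.93 and 5.62 RPKM anteriorly against 16.1 and 6.22 RPKM posteriorly. It was the highest SLC7 gene of that library.

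SLC7A11 (xCT, the cystine and glutamate exchanger) measured 4.43 and 3.94 RPKM anteriorly against 2.83 and 7.12 RPKM posteriorly, which surround the anterior values. The only heavy chain row was SLC3A1, the partner of a kidney-type cystine carrier, at 1.31 and 1.61 RPKM anteriorly against 1.22 and 1.26 RPKM posteriorly. SLC3A2, the heavy chain that SLC7A5, SLC7A6 and SLC7A11 need, had no row under that name, so its level is not known here. SLC7A4 stayed between 0.754 and 1.86 RPKM.

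Family SLC6 holds sodium and chloride dependent carriers of amino acids, osmolytes and neurotransmitters, and 9 of its 15 genes were under 1 RPKM in every library. SLC6A6, the taurine carrier, measured 29.5 and 13.3 RPKM anteriorly against 25.3 and 17.9 RPKM posteriorly. SLC6A15, a carrier of branched-chain amino acids and proline, measured 24.8 and 16.3 RPKM against 11.6 and 25.7 RPKM in the same order. The sides overlapped for both genes.

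The glycine carrier SLC6A9 (GLYT1) measured 10.03 and 11.4 RPKM anteriorly against 1.86 and 10.7 RPKM posteriorly. SLC6A17, a vesicular carrier of neutral amino acids in neurons, measured 3.49 and 3.29 RPKM against 0.548 and 3.39 RPKM. In both genes 3 libraries agreed closely and posterior library 1 was low. SLC6A2, the noradrenaline carrier, had the reverse pattern, at 1.62 and 0.839 RPKM anteriorly against 4.95 and 1.37 RPKM posteriorly. SLC6A14, a broad carrier of neutral and cationic amino acids in epithelia, measured 5.58 and 0.971 RPKM anteriorly against 5.04 and 1.44 RPKM posteriorly, with library 1 above library 2 on both sides.

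The order of the genes by level was close between 3 of the libraries. Spearman's rho across the 32 tested genes was 0.94 to 0.97 among the anterior libraries and posterior library 2, and 0.70 to 0.81 between posterior library 1 and each of them. These are correlations across genes, which are not independent replicates and share each library's composition. Over all 10939 tested genes the values were 0.96 to 0.98 and 0.86 to 0.91. SLC38A2 ranked first in anterior library 1 and posterior library 1. SLC7A3 ranked 2 in both anterior libraries, 8 in posterior library 1 and 1 in posterior library 2. In posterior library 1, SLC6A6, SLC43A2 and SLC2A3 followed SLC38A2.

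The anterior libraries were then set against the posterior ones. No transporter gene passed the test: 0 of 32 had an adjusted p under 0.05 in limma on log2(RPKM + 1), with p adjusted over all tested genes, and 0% of the 10939 tested genes passed. At an unadjusted p under 0.05 there were 0 transporter genes, against 0.942% of all tested genes. The smallest adjusted p of a transporter gene was 0.964 in limma. An exact two-sided permutation test of 2 libraries against 2 cannot give a p below 0.333. A gene that missed the threshold is not thereby shown to be equal on both sides.

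By size, 22 of the 32 genes had a positive difference (anterior minus posterior), or 68.8%, beside 64.6% of all tested genes. Their median log2 difference was 0.20, beside 0.11 over all tested genes. It was 0.39 for the 5 tested SLC2 genes, 0.37 for 6 SLC16 genes, 0.25 for 6 SLC38 genes, 0.30 for 6 SLC7 genes and 0.06 for 6 SLC6 genes. Without posterior library 1 the median of the 32 was 0.08, beside 0.02 over all tested genes. By family it was then 0.08 for SLC2, 0.11 for SLC16, 0.07 for SLC38, 0.16 for SLC7 and -0.003 for SLC6. The shift was thus shared in part by the whole table.

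Both anterior libraries exceeded both posterior libraries in 6 of the 32 genes, SLC7A5, SLC7A2, SLC16A4, SLC2A1, SLC38A6 and SLC3A1, beside 18.9% of all tested genes. The reverse held for SLC2A8 alone, beside 7.25%. With at least a 1.5-fold difference on the log2(RPKM + 1) scale added, 2 genes were left on the anterior side, SLC7A5 and SLC16A4, beside 4.09% of all tested genes. SLC7A2, at 1.73-fold by mean RPKM, fell below the cut on that scale. On the posterior side 0 genes were left, beside 0.841%. These last counts moved with the libraries used: leaving out anterior library 1 gave 5 anterior and 7 posterior transporter genes of 32, beside 10.2% and 4.08% of all genes tested in that setting. Leaving out anterior library 2 gave 10 and 0, beside 8.08% and 1.66%. Leaving out posterior library 1 gave 0 and 1, beside 1.85% and 1.33%, and leaving out posterior library 2 gave 15 and 5, beside 26.9% and 9.18%. The counts over all 4 libraries were near the background. Melanocyte markers summed to 31.1 and 39.1 RPKM anteriorly against 15.8 and 26.3 RPKM posteriorly. All 4 tested were higher in anterior tissue by size, beside 64.6% of all tested genes. So were 11 of 13 keratinocyte markers, but their sum was lowest in anterior library 2. It was 3586 and 1446 RPKM anteriorly against 1874 and 1689 RPKM posteriorly. The part of either marker set in the transporter differences was not tested.

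SLC7A5 had the largest difference. It averaged 22.4 ± 3.94 RPKM anteriorly and 11.2 ± 7.87 RPKM posteriorly (SD, n = 2 each), with a log2 difference of 1.10 (standard error 0.50; limma unadjusted p = 0.0728, adjusted p = 0.964). Without posterior library 1 the difference was 0.39. SLC16A4 averaged 2.92 ± 0.235 RPKM anteriorly and 1.55 ± 1.07 RPKM posteriorly, and the log2 difference was 0.69 (standard error 0.37), and 0.25 without that library. SLC7A2 kept more of its difference, at 0.54 (standard error 0.27) over all libraries and 0.38 without posterior library 1. SLC38A6 stood at 0.32 (standard error 0.25), and 0.25 without it. SLC2A1 stood at 0.42 (standard error 0.28), and 0.19 without it.

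Other anterior differences were near 0 once posterior library 1 was left out. SLC6A9 had a log2 difference of 1.01 (standard error 0.66) over all libraries and -0.01 without that library. The values were 0.89 and 0.09 for SLC7A3, 0.85 and 0.08 for SLC2A13, and 0.75 and -0.00 for SLC6A17 (standard errors 0.52 to 0.56). SLC16A1 stood at 0.53 and 0.15. With posterior library 2 left out instead, the log2 difference was 2.03 for SLC6A9, 1.69 for SLC7A3 and 1.81 for SLC7A5. That fit sets posterior library 1 alone against the anterior side, so it does not cover the spread between posterior libraries.

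**Figure D3:**
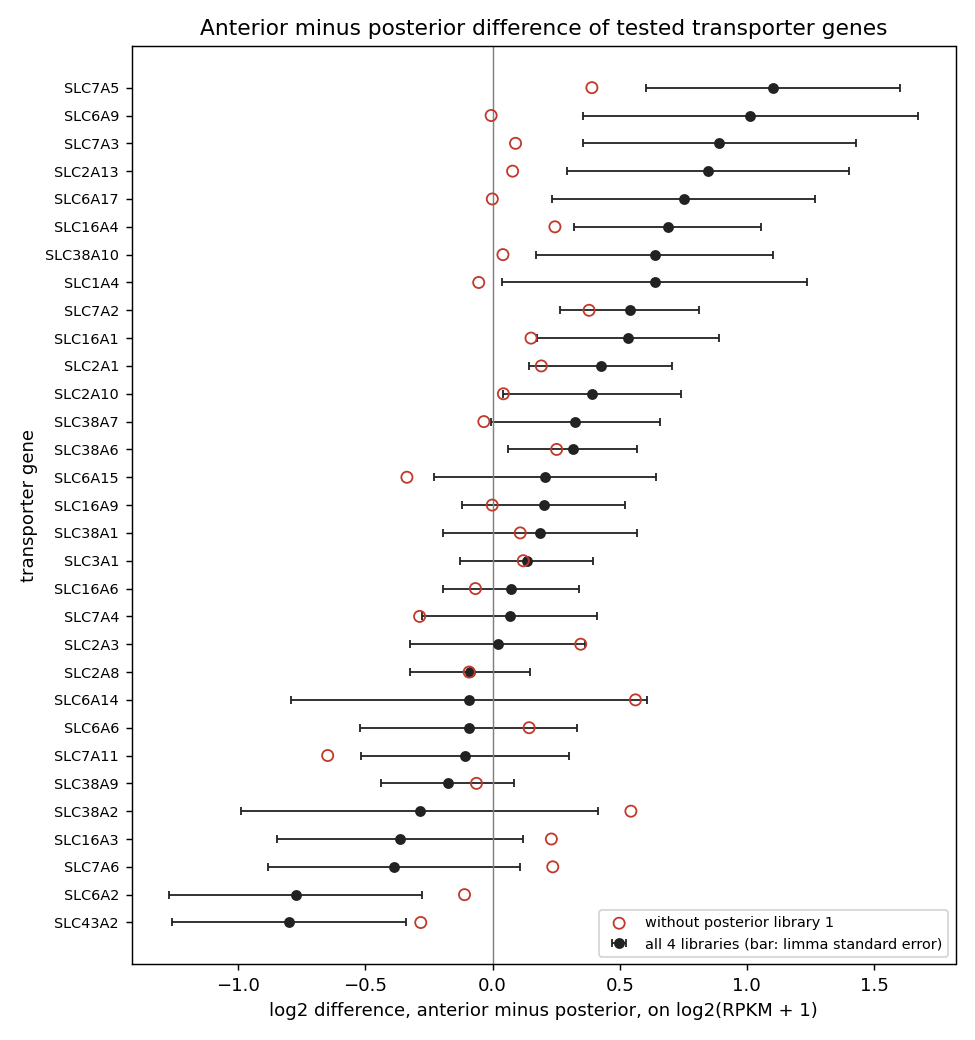
Log2 difference, anterior minus posterior, of 31 of the 32 tested genes on the log2(RPKM + 1) scale; filled points use all 4 libraries with the limma standard error as bar, open circles leave out posterior library 1. SLC7A5 is at 1.10 and 0.39, SLC6A9 at 1.01 and -0.01, and SLC38A2 at -0.29 and 0.54.

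On the posterior side the largest differences belonged to SLC43A2 and SLC6A2. SLC43A2 averaged 8.67 ± 3.69 RPKM anteriorly and 16.3 ± 8.42 RPKM posteriorly, and the log2 difference was -0.80 (standard error 0.46), and -0.28 without posterior library 1. SLC6A2 had a log2 difference of -0.77 (standard error 0.50), and -0.11 without it. SLC7A6, SLC16A3 and SLC38A2 changed sign, with -0.39, -0.36 and -0.29 over all libraries and 0.24, 0.23 and 0.54 without posterior library 1. SLC6A6, SLC2A3 and SLC2A8 had log2 differences of -0.09, 0.02 and -0.09, each within its standard error of 0.24 to 0.43.

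Some transporter genes were low in posterior library 1, a pattern described after the values were seen. That library held the lowest of the 4 values in 21 of the 32 genes (65.6%), beside 54.5% of all tested genes. Its value was at least 2-fold below each other library in 9 genes (28.1%), beside 9.99% of all tested genes and 11 of 106 tested genes of other SLC families (10.4%). Among them were SLC16A4, SLC2A10, SLC2A13, SLC38A10, SLC6A17, SLC6A9, SLC7A3 and SLC7A5. The lowest other library exceeded posterior library 1 by 6.01 times for SLC6A17, 5.40 times for SLC6A9, 3.17 times for SLC7A3 and 2.98 times for SLC7A5. After median ratio scaling, an alternative added after the data were seen, 8 genes were left, beside 5.44% of all tested genes. The share was not tested against the other genes.

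Posterior library 1 held the highest value in 7 genes, beside 26.5% of all tested genes: SLC38A2, SLC43A2, SLC2A3, SLC7A6, SLC38A9, SLC6A2 and SLC16A3. A value at least 2-fold above each other library was met by SLC6A2 alone, at 3.05 times the highest of them, beside 2.62% of all tested genes. After median ratio scaling 3 genes met it, beside 4.69% of all tested genes. The untested SLC38A4 stood at 17.1 times the highest other library. In this library 9 of 10 smooth muscle markers were also at least 2-fold above each other library, and their sum was 4386 RPKM. Of 12 tested papilla markers, 4 were at least 2-fold below each other library there and 1 above. Papilla markers summed to 2522 and 1930 RPKM anteriorly against 3395 and 2146 RPKM posteriorly. Also that far below were 5 of 13 endothelial and 3 of 4 tested melanocyte markers, with 0 above in either set. For keratinocyte and leukocyte markers it was 1 of 13 and 1 of 9. Of all tested genes, 9.99% were that far below. Alkaline phosphatase (ALPL) measured 37.2 and 33.7 RPKM anteriorly against 3.46 and 19.3 RPKM posteriorly. Of the 12 papilla markers, 8 were higher in anterior tissue by size and 4 were lower, while 64.6% of all tested genes were higher. Among the lower ones, DCN measured 749 and 492 RPKM anteriorly against 1561 and 624 RPKM posteriorly. LUM measured 660 and 490 RPKM against 1289 and 604 RPKM in the same order. DCN and LUM were the highest papilla markers in posterior library 1. The part of these markers in the transporter values was not tested.

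A further pattern was a difference between the libraries of each side in the same direction. Library 1 was at least 1.5-fold above library 2 on both sides in 6 of the 32 genes, SLC38A2, SLC6A14, SLC43A2, SLC7A6, SLC16A3 and SLC6A2 (18.8%), beside 4.41% of all tested genes and 6 of 106 other SLC genes (5.66%). All of the 6 transporter genes but SLC6A14 also had their highest value in posterior library 1, so this set overlaps the one above. SLC6A14 had the largest ratio of the 6 on the anterior side, 5.74, and one of 3.50 on the posterior side, where SLC6A2 was highest at 3.61. For SLC43A2 the ratios were 1.86 on the anterior and 2.15 on the posterior side. The taurine carrier SLC6A6 had ratios of 2.22 and 1.41. Library 2 was at least 1.5-fold above library 1 on both sides for SLC2A13 alone, beside 5.38% of all tested genes. SLC1A4 was opposite between the sides, at 2.47 times in anterior library 1 over anterior library 2, while posterior library 2 was 3.01 times posterior library 1.

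**Figure D4:**
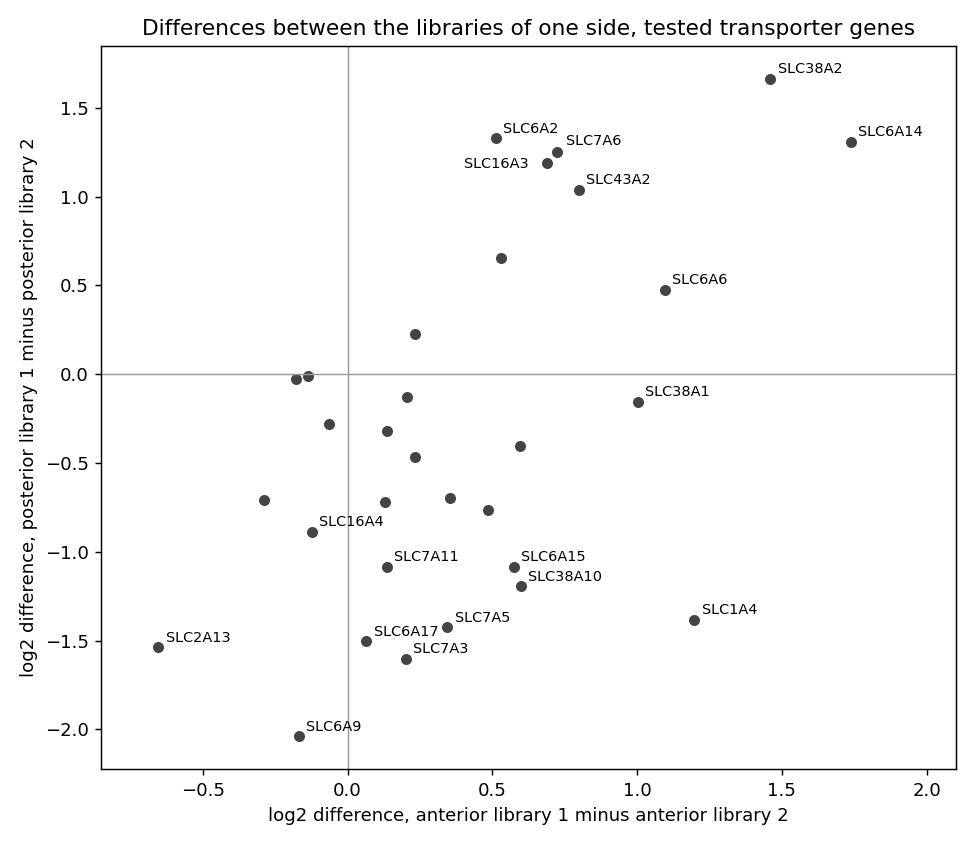
Log2 difference on the log2(RPKM + 1) scale between the libraries of one side for 31 of the 32 tested genes, with anterior library 1 minus 2 on the horizontal and posterior library 1 minus 2 on the vertical axis. SLC38A2 and SLC6A14 lie in the upper right, and SLC6A9 and SLC7A3 lie low, where posterior library 1 is below posterior library 2 with little difference between the anterior libraries.

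Keratinocyte markers were higher in library 1 than in library 2 for 13 of 13 genes on the anterior side. On the posterior side 5 of 13 were higher and the other 8 were lower. Their sum was 3586 and 1446 RPKM anteriorly against 1874 and 1689 RPKM posteriorly, and all 13 were at 1 RPKM or more in every library. The share of all tested genes with library 1 higher is not given here. The median over all genes was 4.88 and 4.68 RPKM anteriorly against 3.75 and 4.62 RPKM posteriorly. The keratin gene KRT75 measured 447 and 114 RPKM anteriorly against 423 and 89.3 RPKM posteriorly, with library 1 higher on both sides. The basal keratin gene KRT5 measured 796 and 216 RPKM anteriorly against 182 and 266 RPKM posteriorly, with library 1 higher on the anterior side alone. Adipocyte markers summed to 108 and 88.3 RPKM anteriorly against 174 and 94.2 RPKM posteriorly, with CIDEC at most 0.0887 RPKM. Whether these tissues account for the transporter values was not tested.

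Genes that work with the transporters were read from lists, none of which held a gene past the threshold by the limma adjusted p. Apart from BSG, the genes named from a list were those of smallest unadjusted limma p, so they do not stand for the list. Their differences without posterior library 1 are not given here. Over all tested genes 64.6% of differences were positive, with a median of 0.11, or 0.02 without posterior library 1. Both anterior libraries exceeded both posterior libraries in 18.9% of all tested genes, and the reverse held in 7.25%. Of the partners and regulators, 3 of 9 tested genes had positive differences, with a median of -0.15, or -0.07 without posterior library 1. Basigin (BSG), the chaperone that brings MCT1 and MCT4 to the membrane, was abundant at 317 and 299 RPKM anteriorly against 186 and 335 RPKM posteriorly, and was named after its values were seen. ARRDC3, an arrestin-like adaptor, measured 29.7 and 18.0 RPKM against 48.7 and 24.7 RPKM in the same order. ARRDC4, which promotes GLUT1 internalisation, measured 6.33 and 5.87 RPKM anteriorly against 8.32 and 6.75 RPKM posteriorly, and TBC1D1, a regulator of GLUT traffic in muscle, 7.40 and 8.54 RPKM against 13.8 and 8.42 RPKM.

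Among glucose and lactate enzymes, 11 of 23 differences were positive and the median was -0.04, or -0.01 without posterior library 1. LDHA, the lactate dehydrogenase subunit that favours lactate formation, measured 703 and 749 RPKM anteriorly against 1089.7 and 967 RPKM posteriorly, with no overlap and with a log2 difference of -0.50 (standard error 0.23.) Hexokinase HK2, which phosphorylates incoming glucose, went the other way, at 6.497 and 8.92 RPKM anteriorly against 3.92 and 5.52 RPKM posteriorly. The phosphofructokinase gene PFKL measured 5.51 and 5.78 RPKM against 1.42 and 5.49 RPKM, lowest in posterior library 1.

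Of genes of the ATF4 amino acid response, which includes SLC38A2 and SLC7A11 in mammals, 12 of 21 differences were positive. Their median was 0.03, or -0.03 without posterior library 1. CARS, a cysteinyl-tRNA synthetase, measured 17.5 and 17.04 RPKM anteriorly against 26.4 and 20.3 RPKM posteriorly. MTHFD2, a mitochondrial folate enzyme, measured 8.95 and 9.10 RPKM in anterior samples, against 3.92 and 8.53 RPKM in posterior ones, and the hormone gene STC2 6.06 and 1.57 RPKM against 7.9999 and 8.32 RPKM, each without overlap. In the list for amino acid sensing by mTORC1, 17 of 22 differences were positive, beside 64.6% of all tested genes. Their median was 0.14, or 0.02 without posterior library 1. WDR24, a subunit of the GATOR complex, had the smallest unadjusted limma p of this list, 0.188. It measured 4.61 and 6.01 RPKM anteriorly against 2.18 and 4.76 RPKM posteriorly, and the sides overlapped. RRAGC measured 10.6 and 12.2 RPKM anteriorly against 6.52 and 10.1 RPKM posteriorly. TSC2 measured 5.62 and 3.77 RPKM against 2.83 and 3.63 RPKM in the same order. Neither RRAGC nor TSC2 overlapped between the sides.

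Enzymes of glutamine, arginine and proline had 11 of 13 positive differences, beside 64.6% of all tested genes. Their median was 0.25, or 0.13 without posterior library 1. ARG2, an arginase that uses the arginine carried by CAT proteins, measured 41.1 and 52.3 RPKM anteriorly against 14.7 and 38.1 RPKM posteriorly, with no overlap. GSS, glutathione synthetase, measured 13.03 and 12.06 RPKM against 5.70 and 12.05 RPKM, and P4HA3, a collagen prolyl hydroxylase subunit, 5.27 and 6.08 RPKM against 5.12 and 2.17 RPKM. Hypoxia genes had 8 of 14 positive differences and a median of 0.02, or 0.04 without posterior library 1. BNIP3, a hypoxia response gene for a mitochondrial protein, measured 50.3 and 53.4 RPKM anteriorly against 113 and 64.1 RPKM posteriorly. The oxidase gene ERO1L measured 9.93 and 10.6 RPKM against 12.4 and 17.1 RPKM. LOX, a collagen crosslinking enzyme, measured 21.2 and 21.5 RPKM against 6.71 and 13.8 RPKM (limma unadjusted p = 0.0302).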

How the data were processed

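Per the labels' protocols, dissected tissue went into Trizol and libraries were made with the Illumina TruSeq RNA kit. The deposited values are RPKM made by the authors, in a table whose name gives Ensembl release 78. TopHat2, Partek and the build galGal4 appear, without versions, in the submitters' processing notes; the counting step is not given in the sources used. Paralogs could therefore share reads. RefSeq names (assembly bGalGal1.mat.broiler.GRCg7b, another build) served for symbols only, and 64 of the 65 genes were current symbols. Of 72 current symbols that match the family rule, 8 had no row under that name, so family sums may miss members.

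Values were analysed as log2(RPKM + 1), which understates the fold of low genes. The 1.5-fold cut between sides used this scale, while folds between single libraries used RPKM. The 10939 genes that reached 1 RPKM in 2 or more libraries were fitted with limma 3.58.1 in R 4.3.3 (eBayes with trend, two-sided, no covariates, 2 residual degrees of freedom, Benjamini-Hochberg adjusted p under 0.05). The fit was tested on simulated data with independent noise, no outlying library and no link between same-numbered libraries. That test thus does not show how the fit behaves on these 4 libraries. Tables and plots used Python 3.11.15, pandas 2.3.3 and matplotlib 3.10.9.

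The members and lists were chosen with earlier results of these data known. The naming rule took the 2 highest genes per family and those with a mean of at least 20 RPKM. It added up to 8 per direction at least 1.5-fold apart without overlap, and the 6 differing most between the posterior libraries. Of each other list it took up to 3 tested genes of smallest unadjusted limma p. Further genes were chosen once their values were known. Other settings tried were a replicate block, quantile normalization, median ratio scaling, a pseudocount of 0.1 or 0.5, a filter of 5 RPKM or none, robust or untrended eBayes, and leaving out each library, which leaves a lone library that is assumed to vary like the other side. A gene counted here is not reported by name and is left out of the plots of single genes.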

Additional observations from a re-analysis of the deposited data

How the results depend on the processing

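The count of 0 transporter genes past the threshold held under every alternative except leaving out a library, where it was 0 to 4, and the count over all genes 0 to 297, both highest without posterior library 2. Genes at least 1.5-fold higher in anterior tissue without overlap numbered 1 at a filter of 5 RPKM, 3 at either smaller pseudocount, and 0 to 15 with a library left out, lowest without posterior library 1 and highest without posterior library 2; on the posterior side they numbered 0 to 7, highest without anterior library 1. With no filter and under both scalings these counts were 2 and 0. The variance models and the block were not applied to them. The transporter genes tested numbered 20 at the filter of 5 RPKM, 65 with no filter, 33 after median ratio scaling and 32 otherwise. Shares of all tested genes are given above only as deposited and with a library left out. For the other settings these counts thus cannot be set against the background. Without posterior library 2, the counts past the threshold came from 32 tested transporter genes and from 10777 tested genes in all. That fit leaves 1 posterior library, so it cannot show whether transporter genes pass more often than other genes. The median difference of the transporter genes was 0.02 with no filter, which adds genes near 0, and 0.08 to 0.50 with a library left out. After median ratio scaling it was 0.08, with a median of all genes of -0.00, and posterior library 1 exceeded each other library by 2-fold or more in 3 genes (1 as deposited). After quantile normalization the median was 0.11.

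Of 17 named and tested genes, SLC2A3 alone reversed under a scaling, to -0.11 after median ratio scaling and -0.052 after quantile normalization. With a library left out, the log2 difference ran from -0.31 to 0.35 for SLC2A3, -0.054 to 1.33 for SLC1A4, -1.12 to 0.54 for SLC38A2, -0.31 to 0.69 for SLC38A1, -0.64 to 0.45 for SLC6A6, -0.34 to 0.75 for SLC6A15, -0.0055 to 2.03 for SLC6A9 and -0.00078 to 1.504 for SLC6A17. The cause was not tested. No label ties the library numbers of the sides to each other, but deviations of same-numbered libraries correlated at 0.49 across all tested genes. The replicate block assumes that same-numbered libraries pair, and it leaves 1 residual degree of freedom. With it, 2 genes of all passed and 0 transporter genes. An unadjusted limma p under 0.05 was met by 8 of 32 transporter genes, beside 5.64% of all tested genes. Read totals are unknown, so the precision of values near 1 RPKM is unknown.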

Other observations

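A cationic amino acid carrier stood outside the naming rule. The row CAT-1, which RefSeq lists as an older name of SLC7A1, measured 5.77 and 4.53 RPKM anteriorly against 1.27 and 3.83 RPKM posteriorly, with no overlap and a log2 difference of 0.89 (standard error 0.42; limma unadjusted p = 0.0827, adjusted p = 0.964). It was lowest in posterior library 1, as SLC7A3 was, and its difference without that library is not given here.

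SLC5A3, a sodium-coupled inositol carrier, measured 27.3 and 11.6 RPKM anteriorly against 7.71 and 15.5 RPKM posteriorly, and SLC5A6, a vitamin carrier, 9.50 and 8.26 RPKM against 3.24 and 11.5 RPKM. The lysosomal carriers SLC15A4 and SLC17A5 varied little, at 8.20 and 7.92 RPKM anteriorly against 7.22 and 8.33 RPKM posteriorly for SLC15A4, and 6.99 and 7.32 RPKM against 7.29 and 7.08 RPKM for SLC17A5. These genes were chosen after their values were seen.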
